A study of Mus musculus with 7 samples.

Results

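Mitochondrial ribosomal protein genes were the 77 rows, of 21878 in the deposited gene count table, whose symbol begins with Mrpl or Mrps followed by a digit and whose counts summed to 10 or more over the 7 libraries. By symbol, 48 of them belong to the large subunit and 29 to the small subunit. The RNA came from abdominal aortas of C57BL/6 males, whose age is given as 8 weeks. Over at most 28 days the animals received angiotensin II, or Ang II, a hormone that raises blood pressure and promotes aortic aneurysm when blood lipids are high. The label of 3 libraries was ApoE-/- (ApoE 1 to ApoE 3), and that of the other 4 was ApoE-/-Nur77-/-, called double knockout here and numbered DKO 1 to DKO 4. By label, both groups lack the apolipoprotein gene Apoe and both received Ang II, and they differ in Nr4a1, which encodes the nuclear receptor Nur77. No library labelled as untreated or as having an intact Apoe gene was analysed here. Whether the libraries are separate mice, and how the knockout alleles were made, is not in the labels, so p-values measure only the spread between these libraries.

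The mitochondrial ribosome makes the few proteins encoded by mitochondrial DNA, all of them membrane subunits of the respiratory chain and ATP synthase. Its ribosomal RNAs come from mitochondrial DNA, but every one of its proteins is encoded in the nucleus, translated in the cytosol and imported. Compared with its bacterial ancestor it has gained many proteins, so some members have a bacterial homologue and others are found only in mitochondria. Nuclear respiratory factor 1 (NRF1), ETS factors such as GABP (also called NRF2) and YY1 are known to act at promoters of many nuclear genes for mitochondrial proteins.

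Total counts ranged from 19295287 to 21727192 per library, and the members' counts in single libraries ranged from 140 to 2062. The counts of the targeted genes did not bear out the labels. Nr4a1 was read at 193, 56.4 and 111 CPM (counts per equal library size, after normalisation) in the libraries labelled ApoE-/- and at 46.2, 57.0, 90.1 and 92.7 CPM in those labelled double knockout (log2 fold change -0.75, SE 0.42, edgeR adjusted p = 0.360). Apoe was read at 184 to 250.3 CPM in the first group and at 18.3 to 34.7 CPM in the second, a 7.73-fold difference between groups that are both labelled Apoe-deficient. Counts over a whole gene can include transcripts from an altered allele, and the deleted parts were not given in the sources used here. Every direction below therefore follows the labels alone, as double knockout relative to ApoE-/-. The labelled tissue was checked against marker lists. Smooth muscle genes had a mean log2 CPM of 9.28 to 11.05 across the libraries, but markers of other tissue differed between libraries. The 9 tested atrial cardiomyocyte genes stood at 5.21 in ApoE 2 and 6.90 in ApoE 3 (mean log2 CPM) and at 0.57 to 2.15 in the other 5 libraries. Of the 10 in the table, 4 (Myh6, Myl7, Nppa and Sln) had a count of 0 in at least 1 library. The 10 skeletal muscle genes stood at 3.06 in ApoE 3 and 2.91 in DKO 1 (mean log2 CPM), and at -0.62 to 1.81 in the other libraries.

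The promoters of the members are shown here because the 77 genes lie on 17 chromosomes and share no locus, while part of them share short promoter sequences. RefSeq promoters on GRCm38.p6, from 250 bases before to 50 bases after each start, matched 68 of the 77. Those of Mrps34, Mrpl38, Mrpl4, Mrpl54, Mrps35, Mrpl13, Mrps28, Mrpl15 and Mrpl19 were not matched. Exact motifs were searched on both strands. The ETS motif CCGGAAGT was found in 12 of 68 members (17.6%), against 8.13% of the 11543 tested genes with a promoter and 4.31% of all 27025 genes with one. The NRF1 motif GCATGCGC was found in 8 (11.8%, against 5.43% and 3.05%). The YY1 motif AAGATGGCG was found in 8 (11.8%, against 3.09% and 1.64%). At least 1 of these 3 was present in 26 members (38.2%, against 15.6% of tested genes), and 2 members held a pair of them, Mrpl33 (ETS and NRF1) and Mrps27 (ETS and YY1). The motif AAAGGTCA, the element bound by Nur77, was found in 0 of 68 (1.2% of tested genes), and the estrogen-related receptor motif TCAAGGTCA also in 0 (0.303%). These last motifs share most of their letters, and the others do not overlap each other in sequence. A match is a description of the letters and not of binding. For each of the first 3 motifs, 30 bases are printed for 2 to 4 holders, those with the smallest p whose match lay far enough inside the promoter to print 30 bases (the ETS match of Mrpl18 did not), 5′ to 3′ on the motif's strand, with the motif in capitals.

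The ETS examples were members of the large subunit (Mrpl51, Mrpl48, Mrpl27) and of the small subunit (Mrps26). The stretch shown for Mrpl48 lies inside its annotated span (100545779 to 100608301), as its promoter belongs to a start within the gene.
Mrpl51 (chr6:125192099-125192128, plus strand): caggggctaaaCCGGAAGTatttgactgga
Mrps26 (chr2:130563731-130563760, minus strand): ctgcgcccggcCCGGAAGTggccgcggagc
Mrpl48 (chr7:100583147-100583176, plus strand): gcatcttggttCCGGAAGTttttaaaaccc
Mrpl27 (chr11:94653725-94653754, plus strand): gtccgcaagacCCGGAAGTagatctatccc

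The NRF1 examples came from Mrpl39, a mitochondria-specific protein, and Mrpl22 and Mrpl9, which have bacterial homologues. The stretches shown for Mrpl22 and Mrpl9 also lie inside the annotated spans of these genes (58170043 to 58179580 and 94443154 to 94448708).
Mrpl39 (chr16:84735351-84735380, plus strand): cacgcgggggcGCATGCGCgcctctccttg
Mrpl22 (chr11:58171620-58171649, minus strand): gctgactatacGCATGCGCagtccgaggcc
Mrpl9 (chr3:94443297-94443326, minus strand): aaggaccccgcGCATGCGCagctgcgcctc

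The YY1 examples came from Mrps11, where the motif lies upstream of the start, and from Mrpl35, where it lies just after the start. The stretch shown for Mrps11 also lies within the annotated span of another member, Mrpl46 (78775341 to 78783089).
Mrps11 (chr7:78783013-78783042, minus strand): gggaagacagaAAGATGGCGgcgcccgtag
Mrpl35 (chr6:71823743-71823772, minus strand): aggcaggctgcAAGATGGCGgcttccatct

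Members with and without a motif had similar fold changes. The median log2 fold change was -0.33 with and -0.35 without the ETS motif, -0.29 and -0.35 for NRF1, and -0.35 and -0.34 for YY1. The median GC content of the 68 promoters was 58.0%, against 60.3% for tested genes.

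As a group the members were slightly lower in the libraries labelled double knockout. Of the 77 members, 76 had a negative log2 fold change (double knockout minus ApoE-/-), where 52.6% of the 14609 genes tested had one. The median was -0.34, against -0.02 over all genes tested, and the values ran from -1.15 to 0.09. Across the other settings tried, 74 to 77 members were negative. The large subunit had a median of -0.33 (47 of 48 negative) and the small subunit a median of -0.34 (29 of 29 negative). Of single members, 0 of 77 passed an adjusted p of 0.05 in either direction (edgeR quasi-likelihood test, Benjamini-Hochberg, lowest adjusted p = 0.114). Over all genes, 0.0274% were called lower and 0% higher by that rule. At an unadjusted p under 0.05, 26 large and 13 small subunit members were lower and 0 were higher, where 11.8% of all genes tested were lower and 8.00% higher. The groups' CPM values were fully separate for 17 large and 7 small subunit members, all of them lower, where 9.24% of all genes tested were lower and 7.08% higher without overlap. In the large subunit these were Mrpl2, Mrpl9, Mrpl11, Mrpl12, Mrpl15, Mrpl16, Mrpl20, Mrpl22, Mrpl23, Mrpl28, Mrpl30, Mrpl35, Mrpl39, Mrpl41, Mrpl46, Mrpl51 and Mrpl53, and in the small subunit Mrps11, Mrps12, Mrps18b, Mrps22, Mrps31, Mrps33 and Mrps34. With DESeq2's Wald test 7 members passed an adjusted p of 0.05 and with limma voom 40 did, and these tools also called 673 and 1467 of all genes lower. The members lower at an unadjusted p were 11 large and 3 small without ApoE 3, where 6.32% of all genes were lower. They were 17 and 8 without ApoE 1 (8.62% of all genes), 17 and 6 without DKO 1 (8.26%), 17 and 7 without DKO 2 (9.3%), and 16 and 7 without DKO 3 (7.95%). Without ApoE 2 there were 34 and 21 (13.4% of all genes), and without DKO 4 the small subunit had 24 (17.1%). In tissue RNA, fewer cells of a type and less RNA per cell cannot be told apart.

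**Figure D1:**
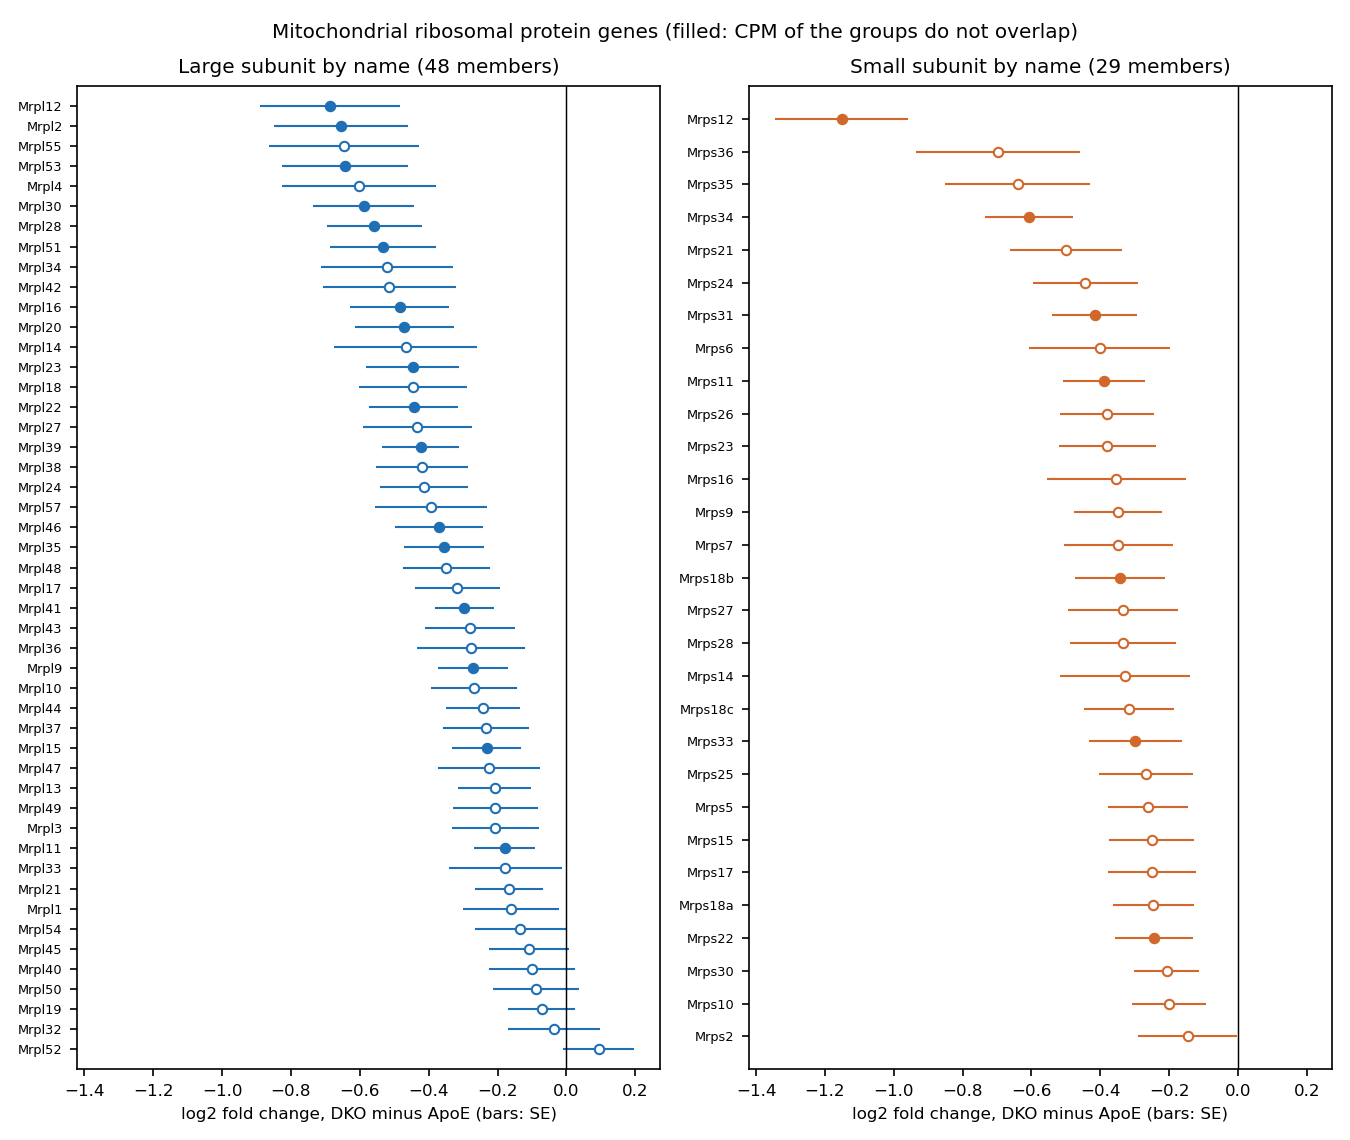
Log2 fold change (x axis, double knockout minus ApoE-/-) of each of the 48 large subunit members (blue) and 29 small subunit members (orange), with bars for the SE; filled points mark members whose CPM values do not overlap between the groups (3 against 4 libraries). All points but Mrpl52 lie below 0, and Mrps12 lies furthest from 0 at -1.15.

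Mrps12 had the largest difference. It encodes a small subunit protein whose bacterial homologue S12 lies at the decoding centre, where codon and anticodon meet. Its level was 18.6, 18.0 and 22.4 CPM in the libraries labelled ApoE-/- and 6.70, 9.94, 7.77 and 11.0 CPM in those labelled double knockout. All 4 of the latter were below all 3 of the former. The means were 19.7 ± 2.41 CPM (SD, n = 3) and 8.85 ± 1.96 CPM (SD, n = 4), a 2.22-fold difference (log2 fold change -1.15, SE 0.19, edgeR adjusted p = 0.114). Leaving out single libraries kept the log2 fold change between -1.27 and -1.02. Over the other 28 small subunit members the lowest value was -0.70, that of Mrps36.

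Mrps12 lies on chromosome 7 (28739641 to 28741821, GRCm38.p6, minus strand), 9.04 Mb from Apoe (19696244 to 19701310). Of 14609 genes tested, 4 were called lower at an adjusted p under 0.05, among them 3 of this chromosome. Apoe (log2 fold change -2.95, SE 0.23, edgeR adjusted p = 0.0227) is the first. The amino acid transporter gene Slc1a5 lies on the same side of Mrps12 as Apoe (16781334 to 16798274, log2 fold change -2.38, SE 0.20, edgeR adjusted p = 0.0227). Slc7a10, also an amino acid transporter gene, lies on its other side (35186095 to 35201116, log2 fold change -1.29, SE 0.12, edgeR adjusted p = 0.0415). Whether the position bears on the level of Mrps12 was not tested. Its head-to-head neighbour Sars2, the mitochondrial seryl-tRNA synthetase gene, starts 172 bases away on the other strand in GENCODE M21. Sars2 was read at 10.3, 12.0 and 13.2 CPM against 10.1, 11.7, 11.1 and 14.3 CPM. These ranges overlap and the means were alike, 11.8 ± 1.45 (SD, n = 3) and 11.8 ± 1.78 CPM (SD, n = 4), with a log2 fold change SE of 0.16. The 150 bases upstream of the RefSeq start of Mrps12, which reach just past the RefSeq start of Sars2 at 28741957, are printed because the neighbours had such unlike values. No capitals are used, as none of the 5 motifs occurs there, and the stretch holds 6 CpG dinucleotides at 49.3% GC.
Mrps12 upstream (chr7:28741822-28741971, minus strand): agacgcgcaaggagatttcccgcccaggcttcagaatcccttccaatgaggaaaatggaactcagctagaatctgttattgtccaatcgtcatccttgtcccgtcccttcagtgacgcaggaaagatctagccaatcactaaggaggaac

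Other members of chromosome 7 were closer to the rest of the family. Mrpl46 and Mrps11, which start next to each other on opposite strands, had log2 fold changes of -0.37 and -0.39. Mrpl48 stood at -0.35, Mrpl17 at -0.32 and Mrpl23 at -0.45, at 80.8 to 122.8 Mb from Apoe. Mrpl13, the 1 member on the chromosome of Nr4a1, lies 45.7 Mb from it and stood at -0.21.

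Part of the members have a head-to-head neighbour. Of 77, 18 (23.4%) had a protein-coding gene on the other strand whose start lay at most 500 bases upstream, or overlapped by at most 50 bases, against 8.66% of tested genes in the GENCODE M21 annotation. Mrpl46 and Mrps11, whose spans overlap by 413 bases there, are outside this rule. Of the 17 such neighbours that were tested, 12 had negative fold changes, with a median of -0.04, where the median of their partners among the members was -0.32. Over all genes tested 52.6% were negative, with a median of -0.02. At an unadjusted p under 0.05, 3 neighbours were lower and 1 was higher, where 11.8% of all genes tested were lower and 8.00% higher. The higher neighbour was Ncapd2 (0.26), a condensin gene opposite Mrpl51 (-0.53). The lowest neighbour was Ndufs6 (-0.75), a subunit of respiratory complex I opposite Mrpl36 (-0.28). Eme2, opposite Mrps34, stood at -0.31 and Mitd1, opposite Mrpl30, at -0.04.

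**Figure D2:**
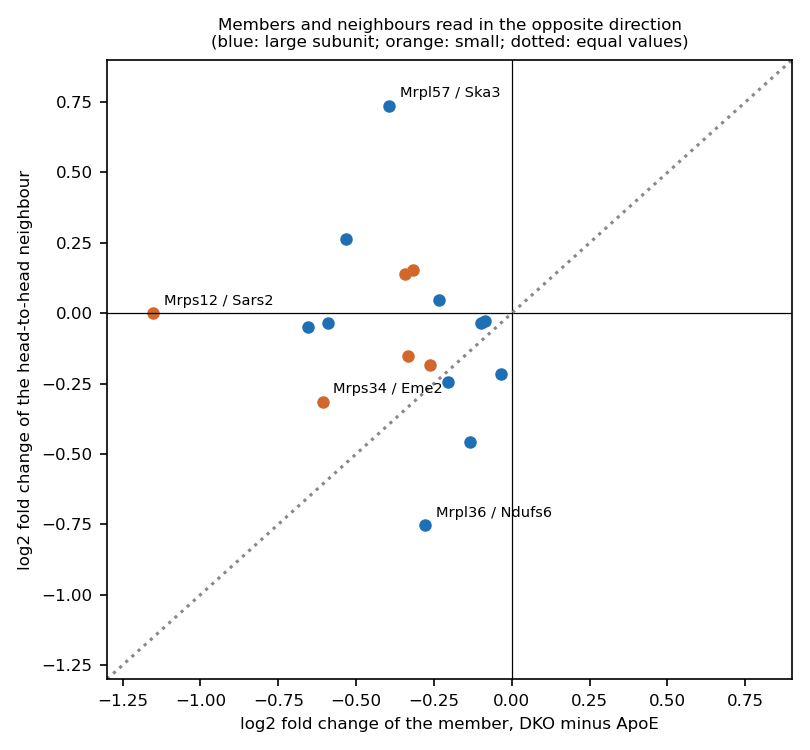
Log2 fold change (double knockout minus ApoE-/-) of 17 members (x axis; blue, large subunit; orange, small subunit) against that of the gene that starts head to head with it on the opposite strand (y axis), with a dotted line for equal values. Mrps12 lies at -1.15 with Sars2 at 0, and the median is -0.32 for members and -0.04 for neighbours.

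Among the other small subunit members, Mrps34 followed by p. It is a protein found only in mitochondrial ribosomes. Its level was 47.6, 38.5 and 53.3 CPM in the libraries labelled ApoE-/- and 28.5, 29.8, 29.5 and 34.2 CPM in those labelled double knockout. The groups did not overlap (log2 fold change -0.61, SE 0.13, edgeR adjusted p = 0.133). Reads of Mrps34 may be shared with Nme3 and Mapk8ip3, which overlap it in GENCODE M21. Mrps31, also mitochondria-specific, stood at 15.6 to 19.0 CPM against 11.4 to 14.1 CPM. Mrps11, the platform protein S11 of the small subunit, stood at 18.1 to 21.8 CPM against 13.8 to 17.4 CPM, and its annotated span overlaps that of Mrpl46. Neither pair of ranges overlapped, and the log2 fold changes were -0.42 and -0.39.

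For 2 further small subunit members the difference was of like size but the groups overlapped through DKO 4. Mrps21, a homologue of bacterial S21, was read at 60.6, 49.5 and 69.7 CPM against 38.4, 39.7, 38.1 and 53.3 CPM. Mrps35, which is mitochondria-specific, was read at 31.3, 26.2 and 41.0 CPM against 19.4, 17.8, 18.9 and 28.2 CPM. In both, DKO 4 stood above ApoE 2. The log2 fold changes were -0.50 (SE 0.16) for Mrps21 and -0.64 (SE 0.21) for Mrps35, with edgeR adjusted p of 0.177 and 0.178.

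The 3 homologues of bacterial S18 had similar values. Mrps18c, which takes the place of the bacterial protein on the platform, stood at -0.32 (SE 0.13), and at -0.20 without ApoE 1. Mrps18b, another small subunit protein, stood at -0.34 (SE 0.13). Mrps18a, which despite its name sits in the large subunit, stood at -0.25 (SE 0.12). Mrps30, likewise a large subunit protein by structure, was read at 28.2, 26.2 and 26.8 CPM against 22.2, 22.4, 22.9 and 26.3 CPM (log2 fold change -0.21, SE 0.10). Mrps36, named for the small subunit but better known as a component of the 2-oxoglutarate dehydrogenase complex, was read at 34.1, 23.3 and 44.2 CPM against 16.7, 20.4, 19.6 and 26.7 CPM. Its log2 fold change was -0.70 (SE 0.24), and ApoE 2 was below DKO 4. Without ApoE 3 it was -0.46. With Mrps36 set aside, the members classed as bacterial homologues (46 members) had a median of -0.35 and those classed as mitochondria-specific (30 members) a median of -0.32. At an unadjusted p under 0.05, 23 of the former and 15 of the latter were lower, against 11.8% of all genes tested. Mrps18a and Mrps18b were counted in the mitochondria-specific class, although they are homologues of S18.

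In the large subunit the smallest p belonged to Mrpl28, a homologue of bacterial L28. Its level was 45.7, 37.0 and 51.1 CPM in the libraries labelled ApoE-/- and 27.4, 31.7, 27.6 and 34.4 CPM in those labelled double knockout. The groups did not overlap (log2 fold change -0.56, SE 0.14, edgeR adjusted p = 0.155). Mrpl30, a homologue of L30, was read at 56.1, 46.3 and 66.3 CPM against 35.3, 34.9, 34.9 and 44.4 CPM (log2 fold change -0.59, SE 0.15, edgeR adjusted p = 0.156). Here DKO 1 to DKO 3 were nearly equal and DKO 4 lay close to ApoE 2. The mitochondria-specific members Mrpl39, Mrpl53, Mrpl51 and Mrpl41 came next by p, with log2 fold changes of -0.42, -0.64, -0.53 and -0.30. Without ApoE 3, Mrpl53 stood at -0.41 and Mrpl51 at -0.33. None of these 4 overlapped between the groups. Mrpl53 shares its annotated span with the model gene Gm42688.

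Mrpl12, the homologue of L7/L12, forms the flexible stalk that recruits translation factors, and it has been described to bind the mitochondrial RNA polymerase. Among large subunit members it had the lowest log2 fold change, -0.69 (SE 0.20, edgeR adjusted p = 0.162). Its level was 69.3, 64.4 and 112 CPM against 49.3, 50.7, 44.9 and 58.9 CPM. ApoE 3 stood far above the rest, and without ApoE 3 the log2 fold change was -0.39. Mrpl2, the homologue of L2 at the core of the peptidyl transferase region, had the next lowest value, -0.65 (SE 0.19). It was read at 42.7, 33.5 and 59.2 CPM against 26.5, 25.9, 28.9 and 33.3 CPM, so that ApoE 2 and DKO 4 nearly met. The stalk base proteins Mrpl10 and Mrpl11 stood at -0.27 and -0.18. Around the exit of the peptide tunnel, Mrpl22, Mrpl23, Mrpl24, Mrpl45 and Mrpl47 ranged from -0.45 to -0.11. Mrpl45, which tethers the ribosome to the inner membrane, was the highest of them. Mrpl1, which forms the L1 stalk beside the exit of spent tRNA, stood at -0.16. In the head of the small subunit, Mrps7, Mrps9, Mrps10 and Mrps14 ranged from -0.35 to -0.20. These sites were chosen after the values were seen and are a description.

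**Figure D3:**
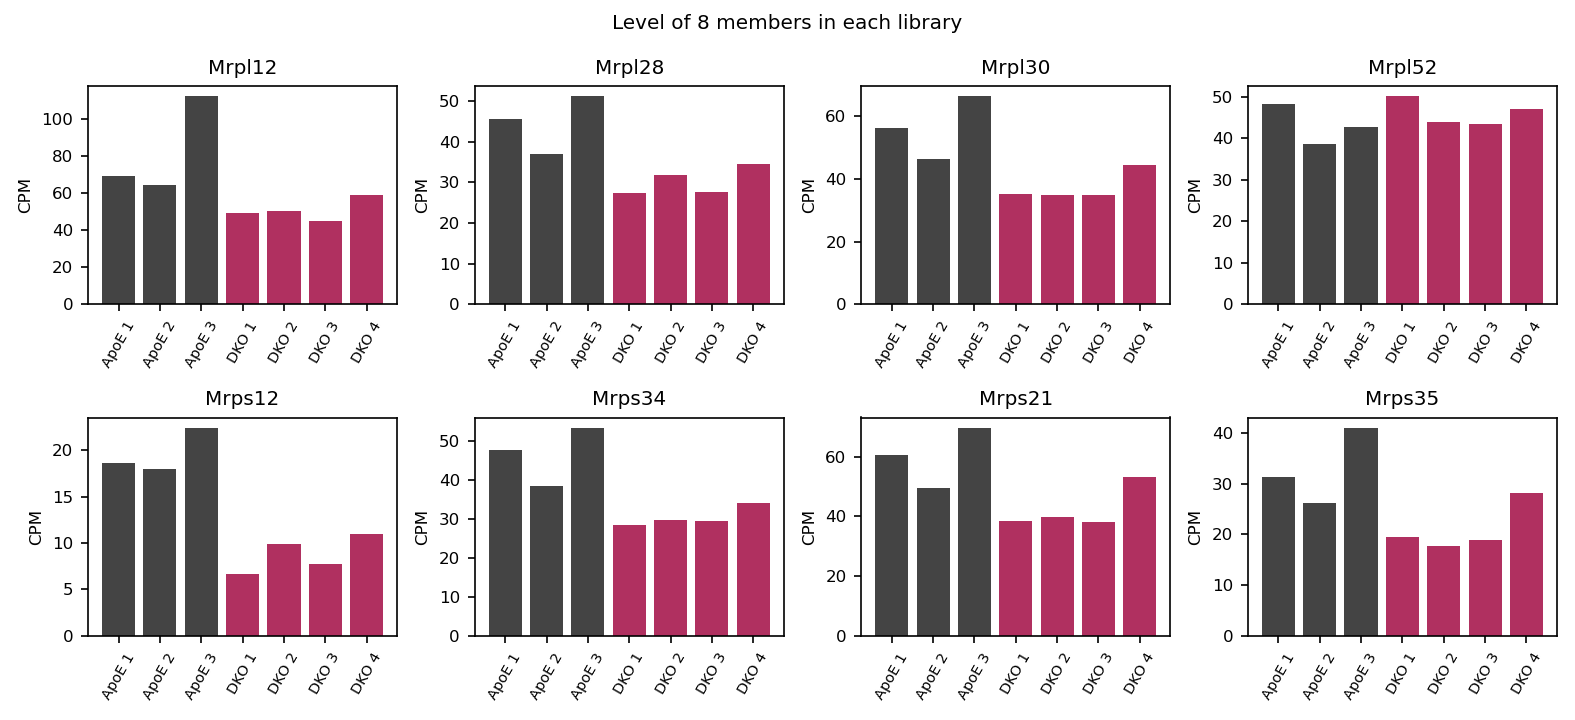
CPM (y axis, from 0) of 8 members in each library (x axis; grey, ApoE-/-; red, double knockout; 1 bar a library). ApoE 3 is the highest bar for all but Mrpl52, and DKO 4 is the highest red bar for all but Mrpl52.

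Mrpl52 was the 1 member with a positive log2 fold change, 0.09 (SE 0.10, edgeR adjusted p = 0.640). It was read at 48.2, 38.7 and 42.7 CPM against 50.1, 43.8, 43.5 and 47.0 CPM, and the groups overlapped throughout. Its sign turned with limma voom (-0.02) and without ApoE 2 and ApoE 3 (-0.07). Mrpl32, Mrpl19 and Mrpl50 were also near 0, at -0.04, -0.07 and -0.09. Mrpl19 was read at 18.3, 18.5 and 20.7 CPM against 17.1, 19.7, 18.2 and 17.9 CPM, and its sign turned without ApoE 3 and DKO 1 (0.02). All 4 belong to the large subunit.

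Levels between genes were compared per length, as the deposited FPKM averaged over all libraries. The median member stood at 16.1 FPKM, and the levels spanned 2.37 to 154.6 FPKM. In the large subunit Mrpl52 (154.6), Mrpl33 (109) and Mrpl54 (56.5) were highest, and Mrpl1 (2.37), Mrpl19 (3.12) and Mrpl15 (3.43) were lowest. In the small subunit Mrps21 (70.3), Mrps16 (56.1) and Mrps24 (38.0 FPKM) were highest, and Mrps10 (3.19), Mrps25 (3.29) and Mrps31 (6.95 FPKM) were lowest. Members of 1 complex thus spanned a wide range of mRNA level per length. Among these 3 highest of each subunit, log2 fold changes ran from -0.50 (Mrps21) to 0.09 (Mrpl52), and among the 3 lowest of each from -0.42 (Mrps31) to -0.07 (Mrpl19). Mrpl19, Mrpl33, Mrps24 and Mrps25 overlap other genes in the annotation, so their levels are less certain.

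The members shared their high and low libraries, also within a group. ApoE 3 was the highest of all 7 libraries for 41 of 48 large and 25 of 29 small subunit members. Within its group ApoE 2 was the lowest for 67 of 77, and DKO 4 was the highest of its group for 60 of 77. The mean log2 CPM of the large subunit was 5.05, 4.87 and 5.25 in ApoE 1 to ApoE 3, and 4.66, 4.69, 4.65 and 4.89 in DKO 1 to DKO 4. That of the small subunit was 4.86, 4.63 and 5.05, and 4.39, 4.44, 4.39 and 4.67. Over all members the means were 4.98 ± 0.20 (SD, n = 3) and 4.63 ± 0.12 (SD, n = 4). The groups overlapped only in that DKO 4 (4.81) stood above ApoE 2 (4.78), and for 47 members DKO 4 was above ApoE 2. ApoE 1 was above all 4 of the other group for 63 members, ApoE 3 for 71 and ApoE 2 for 26. Without DKO 4 the groups did not overlap for 62 of 77 members, where 20.2% of all genes were then lower without overlap. Without ApoE 2 the count was also 62, where 19.1% of all genes were. As a share of all counts, the members made up 0.252%, 0.235% and 0.294% against 0.206%, 0.204%, 0.204% and 0.230%.

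The balance between the subunits was close in both groups. The mean log2 CPM of the large subunit exceeded that of the small by 0.21 ± 0.03 (SD, n = 3) with the ApoE-/- label and by 0.25 ± 0.02 (SD, n = 4) with the double knockout label. The ranges overlapped.

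Other genes of the mitochondrial translation pathway were also mostly negative, with medians of -0.24 to -0.10. Of 5 mitoribosomal proteins with other symbols, 5 were negative with a median of -0.24, and Aurkaip1 had the smallest p (-0.40, SE 0.15). Gadd45gip1, a large subunit protein near the tunnel exit, stood at -0.28. Ict1, the large subunit's peptidyl-tRNA hydrolase (also named Mrpl58), stood at -0.28 (SE 0.17). Of 25 assembly factors 20 were negative, with a median of -0.21, and 8 were lower at an unadjusted p under 0.05, among them the ribosome-binding factor Rbfa (-0.45) and the GTPase Mtg1 (-0.43). Of 13 translation factors 9 were negative (median -0.13) and 5 were lower by that rule. Tufm, the elongation factor that brings tRNAs to the ribosome, was read at 67.0, 60.4 and 92.8 CPM against 49.6, 48.4, 48.0 and 54.8 CPM (log2 fold change -0.55). Oxa1l, the insertase that takes up the nascent proteins, stood at -0.35. Of 17 mitochondrial aminoacyl-tRNA synthetases 13 were negative (median -0.10) and 2, Fars2 (-0.62) and Iars2 (-0.25), were lower by that rule. Over all genes tested 52.6% were negative and 11.8% were lower by that rule, the same share as among the synthetases (11.8%). Of 16 genes of mitochondrial DNA, transcription and RNA processing 12 were negative (median -0.14) and 3 were lower, including the RNase P subunit Hsd17b10 (-0.67) and the mRNA stabiliser Lrpprc (-0.35). In these lists 0 genes passed an adjusted p of 0.05 (edgeR, Benjamini-Hochberg) in either direction and 0 were higher at an unadjusted p under 0.05. The mitochondrially encoded mRNAs, which these ribosomes translate, were not analysed here.

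The nuclear subunits of oxidative phosphorylation (OXPHOS), which join the products of these ribosomes in the respiratory chain, had a lower median than the members, though the difference between the lists was not tested. All 74 were negative with a median of -0.76. Of them, 72 were lower at an unadjusted p under 0.05, against 11.8% of all genes tested. Examples were the ATP synthase subunit Atp5g3 (-0.55) and the complex I subunit Ndufb2 (-0.76). The members' mean log2 CPM lay 2.27 ± 0.22 (SD, n = 3) below that of the OXPHOS genes in the libraries labelled ApoE-/- and 1.90 ± 0.12 (SD, n = 4) below it with the double knockout label. The distance was greatest in ApoE 3 (2.50), and ApoE 2 (2.07) and DKO 4 (2.06) nearly met. Genes of mitochondrial mass, import and protein quality control were closer to the members. Of 18, 17 were negative with a median of -0.29, including the protease subunit Clpp (-0.77) and the import subunit Timm50 (-0.60). The distance from the members to this list was 1.59 ± 0.03 (SD, n = 3) and 1.63 ± 0.07 (SD, n = 4), and its ranges overlapped. Among 13 tested regulators of mitochondrial genes, 7 were negative (53.8%) and 6 positive, with a median of -0.04. The share of negative values over all genes tested was 52.6%, with a median of -0.02. At an unadjusted p under 0.05, 5 regulators were lower and 1 was higher, against 11.8% and 8.00% of all genes tested. Ppargc1a, the coactivator PGC-1α, was read at 8.18, 13.6 and 13.6 CPM against 4.79, 3.23, 4.48 and 4.70 CPM (log2 fold change -1.45, SE 0.24, edgeR adjusted p = 0.114). Pparg stood at -0.85. Ppargc1a is also in the list of brown adipocyte genes used below. The 79 cytosolic ribosomal proteins had a median of -0.19, with 75 negative and 31 lower by that rule. On log2 FPKM values 65 of those 79 were negative with a median of -0.09, and without ApoE 1 the median was -0.12 with 62 negative. Other settings brought them close to the members. Without ApoE 3 and DKO 1 all 79 were negative, and both medians were -0.23. Without ApoE 3 alone the medians were -0.21 for these genes and -0.24 for the members. With all libraries, 36 of the 79 (45.6%) were lower without overlap, against 31.2% of the members and 9.24% of all genes tested.

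**Figure D4:**
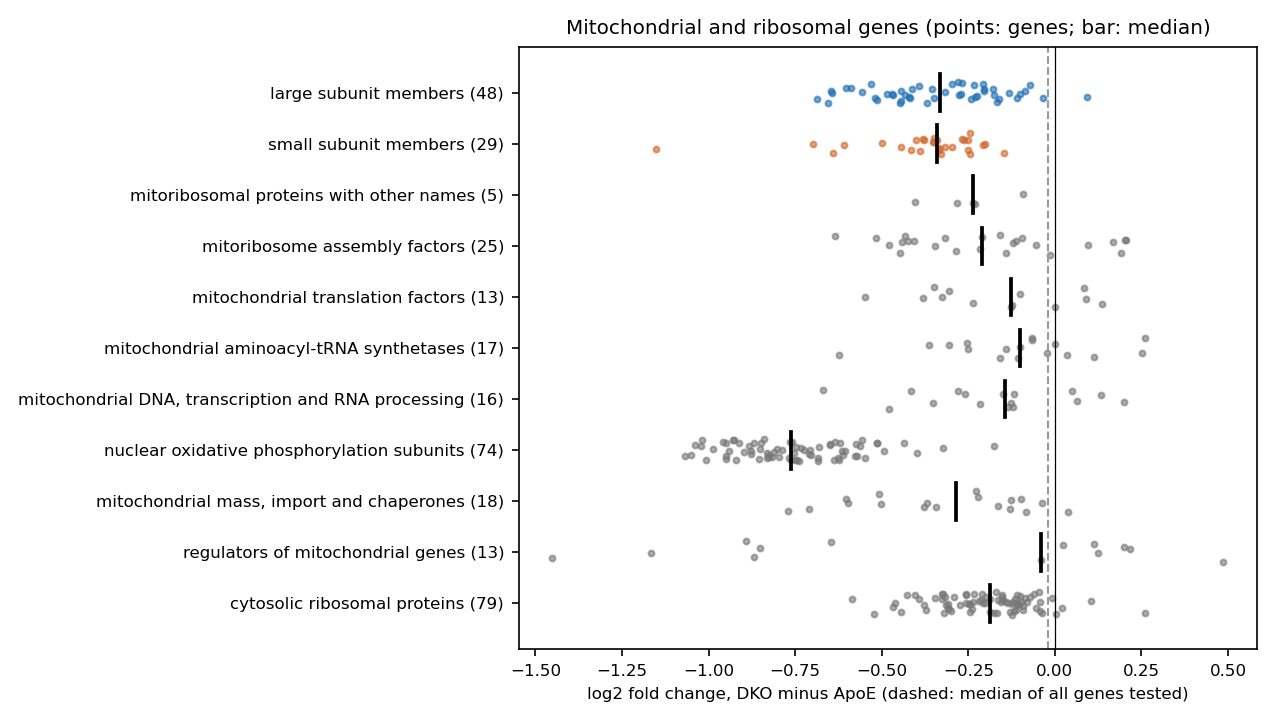
Log2 fold change (x axis, double knockout minus ApoE-/-) of each gene in the large subunit (blue), small subunit (orange) and 9 lists of related genes (grey), with a vertical bar for each median, a dashed line at the median of all genes tested (-0.02), and the number of genes in brackets. The OXPHOS subunits lie furthest below 0 (median -0.76), and the members (-0.33 and -0.34) lie between them and the other translation lists.

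Markers of fat tissue differed in the same direction as the members. All 12 brown adipocyte genes were negative with a median of -1.45, their summed level was 922 to 2579 CPM against 372 to 796 CPM, and 0 of 12 had a count of 0 in any library. All 12 white adipocyte genes were negative with a median of -1.05, their summed level was 10158 to 13963 CPM against 4875 to 7848 CPM, and 0 of 12 had a count of 0. Brown fat is rich in mitochondria. The mean log2 CPM of the brown adipocyte genes was 5.93, 5.59 and 6.88 in ApoE 1 to ApoE 3 and 5.13, 4.24, 4.17 and 5.19 in DKO 1 to DKO 4. As for the members, ApoE 3 was highest, ApoE 2 lowest of its group, and DKO 4 highest of its group. White adipocyte genes had the same extremes except for the lowest library, with 8.91, 8.49 and 9.11 against 7.72, 7.53, 7.57 and 8.14. In mean level neither list overlapped between the groups, where the members did. The mean levels of 4 further lists did not overlap either. These were the fibroblast genes, the cytosolic ribosomal proteins, the import and quality control genes and the regulators. Atrial cardiomyocyte genes were summed at 82.8 to 1460 CPM against 49.1 to 106 CPM, and all 9 tested were negative. Without ApoE 2 and ApoE 3, the libraries with most of these transcripts, the median of the members was -0.32, but ApoE 1 is then the 1 library left of its group. The part of fat or heart tissue in the members' levels was not tested. Smooth muscle genes had 7 of 8 negative (median -0.24, summed level 15884 to 24645 against 8504 to 30412 CPM), endothelial genes 5 of 8 (median -0.16), and fibroblast genes 4 of 8 (median -0.10). Those 4 fibroblast genes were lower at an unadjusted p under 0.05 and without overlap, against 11.8% and 9.24% of all genes tested. Macrophage genes (10 of 10) and lymphocyte genes (7 of 7) were positive, with medians of 0.34 and 0.62. All of them overlapped between the groups. At an unadjusted p under 0.05, 0 macrophage genes and 1 lymphocyte gene were higher, where 8.00% of all genes tested were. The lowest edgeR adjusted p was 0.275 for macrophage and 0.233 for lymphocyte genes.

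**Figure D5:**
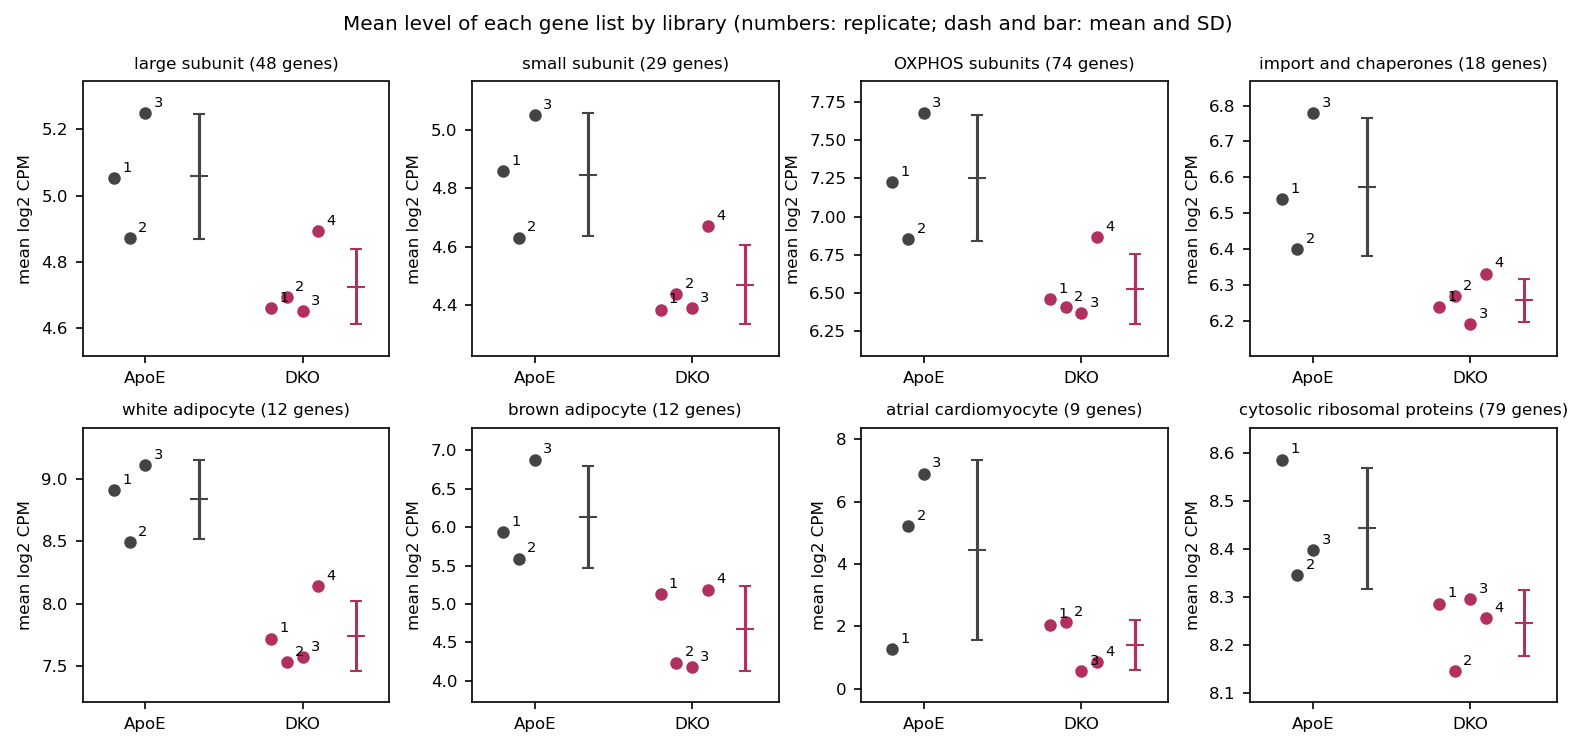
Mean log2 CPM (y axis, a separate scale in each panel) of 8 gene lists in each library, with replicate numbers beside the points and the mean and SD of each group (grey, ApoE-/-, n = 3; red, double knockout, n = 4). For both subunits ApoE 3 is highest (5.25 and 5.05) and DKO 4 reaches just above ApoE 2, as it does for the OXPHOS subunits.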

How the data were processed

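The authors deposited 2 tables of the whole series, whole-number gene counts that were not normalised and FPKM values scaled for gene length and depth, as read from the deposited files. Trimmomatic, HISAT2, HTSeq, Cufflinks, DESeq and GRCm38.p6 are named per the submitters' processing notes, without versions or roles. Libraries were polyadenylated and marked strand, per the labels' protocols. The strand setting of the counting is not given in the sources used here; overlapping genes and near-identical copies are therefore uncertain (26 members overlap another protein-coding gene).

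edgeR's filterByExpr (minimum count 10) left 14609 genes, including all 77 members. After TMM normalisation, edgeR's quasi-likelihood test compared the groups, with Benjamini-Hochberg adjustment over all these genes. The SE was taken as the size of the log2 fold change divided by the root of the F statistic. CPM used the TMM-scaled totals, and a list's level averages its genes' log2 CPM (prior count 2). The software was edgeR 4.0.16, DESeq2 1.42.0 and limma 3.58.1 under R 4.3.3. Coordinates and promoters are from RefSeq on GRCm38.p6.

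The members and lists were chosen with earlier results of these data known. The named members were those with an adjusted p under 0.05, the 6 smallest p, 3 highest and 3 lowest FPKM of each subunit, up to 3 with positive fold changes, any within 5 Mb of Apoe or Nr4a1, and Mrpl12, Mrps12, Mrps18a, Mrps18b, Mrps18c, Mrps30 and Mrps36 for their roles. Of each pathway list the 2 smallest p were named. Members named beyond that rule were chosen after their values were seen. Alternatives were DESeq2, RLE size factors, limma voom (quality weights), no filter or a minimum count of 50, the replicate block, limma on log2 FPKM (pseudocount 1 or 0.1, minimum mean 1 or none), and libraries left out singly or in pairs. Leaving out ApoE 3 with DKO 4 was chosen after seeing the data.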

Additional observations from a re-analysis of the deposited data

Results flagged for a closer look

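In 5 of 30 values examined, DKO 4 lay further from the other 3 libraries of its group than Dixon's 95% limit for 4 samples allows. Chance gives about 1 in 20 such groups, and the members' levels are not independent of each other. Mrpl30 was read at 44.4 CPM in DKO 4 against 34.9 to 35.3 CPM in DKO 1 to DKO 3. Mrps21 stood at 53.3 CPM against 38.1 to 39.7 CPM, and Mrps35 at 28.2 CPM against 17.8 to 19.4 CPM. Mrps16 stood at 34.1 CPM against 23.8 to 24.9 CPM, and Mrps30 at 26.3 CPM against 22.2 to 22.9 CPM. In each case DKO 4 was the highest library of its group. The cause was not tested.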

How the results depend on the processing

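Of the settings tried for the 28 named members, 504 values kept their direction and side of the threshold, 25 passed it in the same direction (DESeq2 or limma voom) and 3 turned sign: Mrpl52 with limma voom (-0.015) and without ApoE 2 and ApoE 3 (-0.069), and Mrpl19 without ApoE 3 and DKO 1 (0.015). Counts depended on the tool. DESeq2 called 673 genes lower and 453 higher at adjusted p under 0.05, with 5 large (Mrpl12, Mrpl28, Mrpl30, Mrpl39, Mrpl53) and 2 small subunit members (Mrps12, Mrps34) lower. Limma voom called 1467 lower and 902 higher, with 24 large and 16 small subunit members lower, and put 26 small subunit members below an unadjusted p of 0.05. The number of genes lower at adjusted p was 0 with the replicate block, on unfiltered FPKM, and without the pairs ApoE 2 with ApoE 3, ApoE 3 with DKO 1 (2 higher) and ApoE 3 with DKO 4. On filtered FPKM 1 gene was higher with either pseudocount. Without ApoE 2 and ApoE 3, 9 large and 6 small subunit members were lower at an unadjusted p, against 5.61% of all genes, with ApoE 1 alone in its group and assumed to vary like the other group. Without ApoE 3 and DKO 1 there were 4 and 2, 6 of 77 members, where 4.93% of all genes were lower; both fits have fewer libraries. Leaving out single libraries gave 0 to 2 genes lower and 0 to 4 higher at adjusted p. It gave 11 to 34 large subunit members lower at an unadjusted p (26 with all libraries; 17 without ApoE 1, DKO 1 or DKO 2, 16 without DKO 3 and 11 without ApoE 3). For the small subunit it gave 3 to 24 (13 with all libraries; 3 without ApoE 3, 6 without DKO 1, 7 without DKO 2 or DKO 3, 8 without ApoE 1, but 24 without DKO 4 and 21 without ApoE 2). With single libraries left out, the medians stayed between -0.41 and -0.23 (large) and between -0.47 and -0.24 (small). Without ApoE 3 and DKO 1 together they were nearer to 0, at -0.21 (large) and -0.23 (small). No steady pairing by replicate number was seen: deviations of same-numbered libraries correlated at -0.39, 0.70 and 0.00, and not every library matched its own number best. The value for ApoE 2 with DKO 2 (0.70) was the highest of all pairs. These correlations cannot decide whether same-numbered libraries shared a batch, as each deviation depends on the other libraries of its group. With the replicate block 44 members were lower at an unadjusted p, against 15.3% of all genes, with a median of -0.40 and 0 at adjusted p. Members had 140 to 2062 counts in a library.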
